A study of Homo sapiens with 10 samples.

Results

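The molecular chaperone genes comprised 86 of the 20098 protein-coding genes that GENCODE release 44 places on the autosomes and chromosome X of GRCh37, the build also called hg19. They were chosen by gene symbol, and no value of the peak lists entered that choice. The family itself was selected on earlier readings of the same lists, however, so the counts of genes with a peak are descriptions, read against the shares over all protein-coding genes, and no test was made. The members fell into 10 classes. There were 4 J-domain protein genes of class A, 12 of class B and 29 of class C, 12 HSP70 genes, 3 HSP110 genes, 3 HSP90 genes, 3 genes of the mitochondrial chaperonin, 10 of the cytosolic chaperonin CCT, 8 small heat shock protein genes and the 2 heat shock factors HSF1 and HSF2. Of the members, 3 are readthrough genes that join a chaperone gene to its neighbour (HSPE1-MOB4, DNAJC25-GNG10 and HSPB2-C11orf52). Pairs of members that lie within 3 kb of each other, such as HSPA1A and HSPA1L, left 82 separate 5′ ends.

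ZMYND8 is a chromatin reader that carries a PHD finger, a bromodomain and a PWWP domain, and the ChIP-seq addressed where it sits in the genome of HEK293 cells, an established human embryonic kidney line. Of its 10 samples, 4 are ChIP for ZMYND8 or its FLAG-tagged form (2 replicates each), 4 are ChIP for acetylated histone H3 and 2 are input, all from crosslinked chromatin cut with micrococcal nuclease. In the ZMYND8 ChIP the antibody was raised to ZMYND8, and the labels describe Flp-In T-REx HEK293 cells with stable expression of 3xFLAG-ZMYND8 or its N228F mutant, without saying which and with no doxycycline named. For FLAG-ZMYND8, the same parental line carried an inducible full-length 3xFLAG-ZMYND8, overexpression was induced with 10 nM doxycycline, and an anti-Flag antibody was used. The values analysed here are 1 peak list of 15086 peaks for ZMYND8 and 1 of 63690 peaks for FLAG-ZMYND8. Neither list names replicates or holds read counts, so depth is unknown, no spread between replicates can be given and a missing peak does not show that the protein was absent. The score is 1 in every row, so peak width in bp was the only graded value. The narrowest peak, 151 bp in the ZMYND8 list and 167 bp in the FLAG-ZMYND8 list, is also the median of its list. The histone and input samples were not analysed here.

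Molecular chaperones bind proteins that are not folded and keep them from aggregating until they fold, are moved across a membrane or are degraded. HSP70 proteins bind and release short hydrophobic stretches in an ATP-driven cycle, J-domain proteins deliver clients and stimulate the ATPase, and HSP110 proteins act as nucleotide exchange factors. HSP90 acts late on kinases and receptors, the chaperonins enclose a client in a chamber, and small heat shock proteins hold clients without ATP. Many of these genes are transcribed at high levels in growing cells, and part of them are further induced by heat through heat shock factor 1, which binds promoter repeats of the units GAA and TTC called heat shock elements.

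At the 5′ ends of the chaperone genes, peaks were more frequent than over all genes in the full FLAG-ZMYND8 list and close to the genome-wide level in the ZMYND8 list and among the widest FLAG-ZMYND8 peaks. A ZMYND8 peak, placed by its midpoint, lay within 3 kb of the 5′ end in 32 of 86 members (37.2%) against 34.1% of all protein-coding genes, which is near the background. A FLAG-ZMYND8 peak lay there in 63 members (73.3%) against 58.1%. When that list was cut by width to the 15086 widest peaks, the number in the ZMYND8 list, it was 32 members (37.2% against 35.5%), with 19 having peaks of both lists (22.1% against 20.1%), which is near the background. With the full lists, peaks of both were found at 29 members (33.7% against 29.4%), and in 24 of them peaks of the lists overlapped by at least 1 bp (27.9% against 20.3%). A ZMYND8 peak without a FLAG-ZMYND8 peak was seen at 3 members, DNAJC10, HSF1 and HSPD1 (3.49% against 4.73%). Of the members, 20 had neither (23.3% against 37.2%). At least 3 FLAG-ZMYND8 peaks stood around the 5′ end of 20 members (23.3% against 14.5%).

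The 5′ end of a gene in the annotation is that of its longest reach and not always that of its main promoter. The start of the transcript tagged as canonical lay over 3 kb from the gene's 5′ end in 13 members and in 12.5% of all genes. For HSP90AA1 it lay 52655 bp downstream, for DNAJB1 41994 bp, for CCT3 29581 bp and for HSPD1 16897 bp. The counts were therefore also made at the canonical start, a choice made after the data had been seen. There, 35 members had a ZMYND8 peak (40.7% against 35.2%), 67 a FLAG-ZMYND8 peak (77.9% against 59.6%), 33 both (38.4% against 30.4%) and 27 an overlapping pair (31.4% against 21.0%). HSPD1 gained FLAG-ZMYND8 peaks at that start, and 17 members were left with neither (19.8% against 35.6%). Around the 3 kb limit, the member whose nearest peak lay just inside was CCT4 for ZMYND8, at 2315 bp from the 5′ end, and DNAJC7 for FLAG-ZMYND8, at 2944 bp. The members just outside were DNAJC1 at 3264 bp and CCT3 at 3596 bp.

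**Figure D1:**
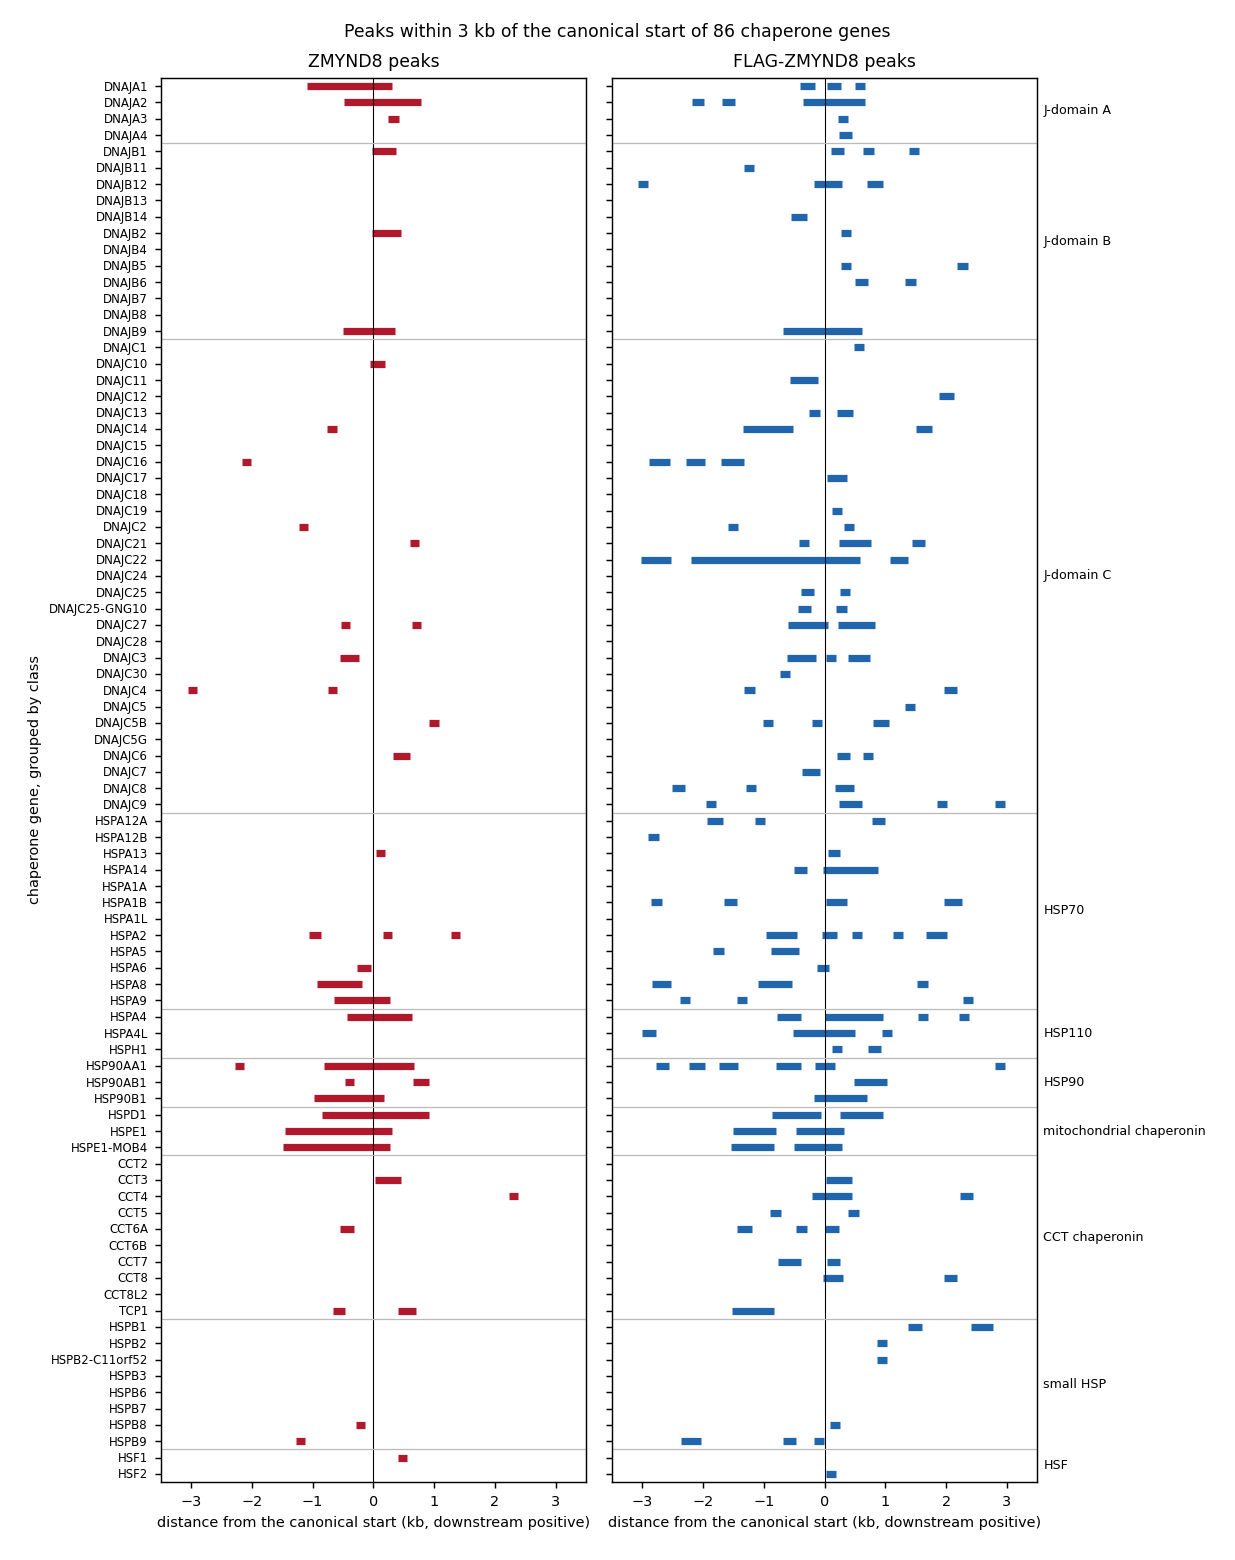
Peaks within 3 kb of the canonical start of each of the 86 chaperone genes, with distance from the start in kb (downstream positive) on the x axis, 1 gene per row grouped by class, and each bar spanning the width of a peak, in red for ZMYND8 and in blue for FLAG-ZMYND8. The widest ZMYND8 bars lie over the starts of HSPD1, HSPE1, HSP90AA1 and DNAJA1, the widest FLAG-ZMYND8 bar is centred upstream of the start of DNAJC22, and 17 rows are empty in both panels.

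Wide ZMYND8 peaks lay at the starts of a few chaperone genes. A ZMYND8 peak of over 1000 bp lay at the 5′ end of 6 members (6.98% against 3.22% of all genes) and at the canonical start of 8 (9.30% against 3.3%). These were HSPD1, HSPE1 and HSPE1-MOB4, which share 1 peak, and HSP90AA1, DNAJA1, DNAJA2, HSP90B1 and HSPA4. A FLAG-ZMYND8 peak of over 1000 bp lay at the 5′ end of 4 members (4.65% against 3.84%), namely DNAJC22, DNAJB9, DNAJA2 and HSPA4L, and at the canonical start of 4 as well (4.65% against 3.96%), which is near the background. The median of the widest peak at the 5′ end was 226 bp for ZMYND8 and 306 bp for FLAG-ZMYND8 among the members that had one, against 234 and 312 bp over all genes. The members thus differed little from other genes in their typical width.

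**Figure D2:**
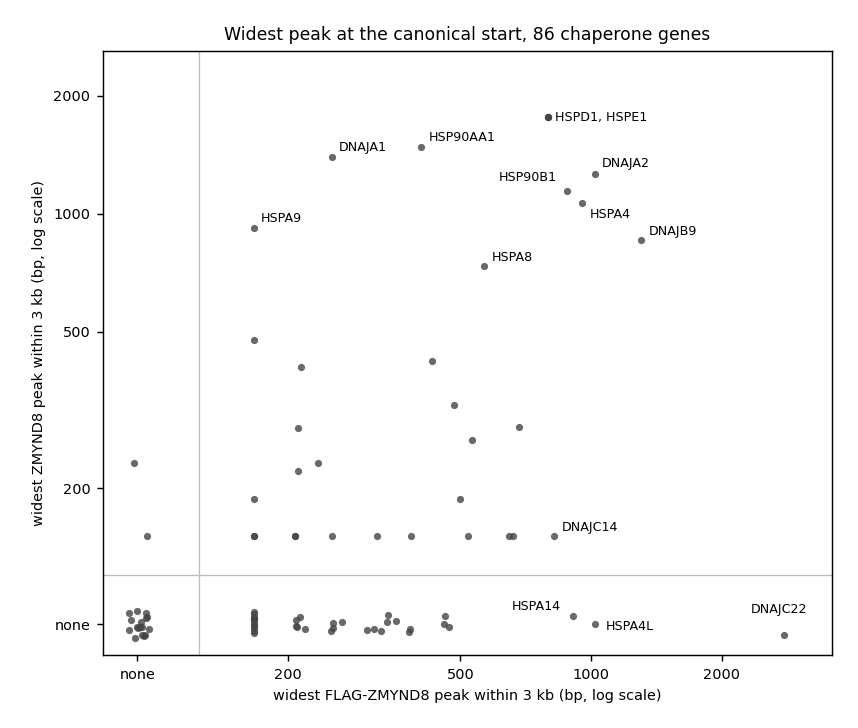
Width of the widest ZMYND8 peak (y axis, bp, log scale) against that of the widest FLAG-ZMYND8 peak (x axis, bp, log scale) within 3 kb of the canonical start, 1 point per chaperone gene, with genes lacking a peak spread at random around the mark none. HSPD1 and HSPE1 lie highest at 1764 bp, and DNAJC22 lies farthest right at 2780 bp with no ZMYND8 peak.

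HSP90, here the 3 genes matched by symbol, was the class in which every member had peaks of both lists at its 5′ end. These overlapped in all 3, where 20.3% of all genes had an overlapping pair. TRAP1, a relative of HSP90 that the symbols left out, had a FLAG-ZMYND8 peak and no ZMYND8 peak at its 5′ end. At the canonical start, every gene of the mitochondrial chaperonin had an overlapping pair as well, all from the same ZMYND8 peak. HSP90AA1 encodes the heat-inducible cytosolic HSP90. Around its canonical start lay a ZMYND8 peak of 1481 bp, rank 298 of the list by width, with its midpoint 74 bp upstream. A second ZMYND8 peak of 151 bp lay 2201 bp upstream. FLAG-ZMYND8 did not form a single wide peak there but 6 peaks of 167 to 406 bp, from 2661 bp upstream to 2889 bp downstream of the start. At the distant 5′ end of HSP90AA1 a ZMYND8 peak of 151 bp lay over a FLAG-ZMYND8 peak of 730 bp. The start of WDR20 lies within 3 kb of that 5′ end, so this pair may be counted for either gene. HSP90B1 encodes GRP94, the HSP90 of the endoplasmic reticulum. Its ZMYND8 peak was 1140 bp wide (rank 595) with the midpoint 98 bp upstream of the 5′ end, and overlapped a FLAG-ZMYND8 peak of 882 bp centred 565 bp downstream. HSP90AB1, the constitutive cytosolic HSP90, had narrower peaks, of 151 and 265 bp for ZMYND8 and of 533 bp for FLAG-ZMYND8, and the pair that overlapped lay 1692 to 1725 bp inside the gene from its 5′ end.

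The promoter of HSP90AA1 carries a heat shock element under the wide ZMYND8 peak, so its sequence is shown. The 250 bases before the canonical start were read from GRCh37 at chr14:102553382-102553631 on the minus strand, 5′ to 3′, with the match to TTCNNGAANNTTC in capitals. All 250 bases lay under the ZMYND8 peak and 163 of them under a FLAG-ZMYND8 peak, and the match began 88 bases before the start.
HSP90AA1: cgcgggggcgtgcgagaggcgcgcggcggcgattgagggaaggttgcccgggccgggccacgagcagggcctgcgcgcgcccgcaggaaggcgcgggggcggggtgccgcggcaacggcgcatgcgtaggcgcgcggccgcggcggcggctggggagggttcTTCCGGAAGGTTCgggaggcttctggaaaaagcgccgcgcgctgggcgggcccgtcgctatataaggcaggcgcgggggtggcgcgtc
The ER stress element, a CCAAT box, 9 bases and CCACG, is bound by factors of the unfolded protein response. HSP90B1 has 2 matches, which begin 194 and 89 bases before the canonical start. All 19 bases of each lay under the ZMYND8 peak, and 3 of the farther match and all 19 of the nearer one under the FLAG-ZMYND8 peak. The farther match is shown in capitals with its flanks at chr12:104323989-104324018 on the plus strand.
HSP90B1: cctgaCCAATCGGAAGGAGCCACGcttcgg

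The mitochondrial chaperonin genes HSPD1 (HSP60) and HSPE1 (HSP10), which encode the chamber and its lid, are transcribed away from each other from a shared promoter. The widest ZMYND8 peak of any chaperone gene lay over this promoter, on chromosome 2 from 198363647 to 198365410, with a width of 1764 bp and rank 194 of 15086. Its midpoint lay 36 bp downstream of the canonical start of HSPD1 and 336 bp upstream of the 5′ end of HSPE1. It overlapped 2 FLAG-ZMYND8 peaks of 707 and 796 bp, centred on either side of the HSPD1 start. The annotated 5′ end of HSPD1 lies near MOB4 instead, where a ZMYND8 peak of 272 bp, 287 bp from the MOB4 start, was found with no FLAG-ZMYND8 peak. The HSPD1 listing among the members with ZMYND8 alone thus belonged to that distant start. Because the shared peak counts for HSPD1, HSPE1 and HSPE1-MOB4, it is 1 observation and not 3. A pair of overlapping heat shock elements lies under it. They are shown in capitals within 30 bases at chr2:198364785-198364814 on the minus strand, all of them under both a ZMYND8 and a FLAG-ZMYND8 peak.
HSPD1: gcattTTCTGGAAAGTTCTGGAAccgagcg

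Among the 12 HSP70 genes, ZMYND8 peaks stood at the 5′ end of 4 and FLAG-ZMYND8 peaks at that of 8 (33.3% and 66.7%, against 34.1% and 58.1% of all genes). At the canonical start it was 5 and 10 (41.7% and 83.3%, against 35.2% and 59.6%). HSPA8 encodes HSC70, the constitutive cytosolic HSP70. Its ZMYND8 peak was 735 bp wide and overlapped a FLAG-ZMYND8 peak of 567 bp, centred 532 and 276 bp downstream of the 5′ end, and 2 further FLAG-ZMYND8 peaks of 167 and 300 bp lay nearby. HSPA9, the mitochondrial HSP70 called mortalin, showed the widest ZMYND8 peak of the class, 921 bp centred 82 bp downstream of the 5′ end. No FLAG-ZMYND8 peak overlapped it, although 4 of the minimum width of 167 bp surrounded it. HSPA5 encodes BiP, the HSP70 of the endoplasmic reticulum, and had FLAG-ZMYND8 peaks of 458 and 167 bp upstream and no ZMYND8 peak. HSPA6, a strictly stress-inducible HSP70, had an overlapping pair of 221 bp for ZMYND8 and 211 bp for FLAG-ZMYND8 centred just before its start, and HSPA13, a microsomal HSP70, a pair of 151 and 208 bp. HSPA14, a ribosome-associated HSP70, had a FLAG-ZMYND8 peak of 908 bp and none of ZMYND8, with the start of CDNF 162 bp from its midpoint. HSPA2, an HSP70 abundant in testis, had no peak at its annotated 5′ end, but around its canonical start 4836 bp downstream lay 3 ZMYND8 peaks of 151 to 188 bp and 5 FLAG-ZMYND8 peaks of 167 to 498 bp, and each of the ZMYND8 peaks overlapped a FLAG-ZMYND8 peak.

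HSPA1A and HSPA1B, the neighbouring genes of the major heat-inducible HSP70, stood apart in the lists although they encode nearly the same protein. HSPA1A had no peak in either list at its start. HSPA1B had 4 FLAG-ZMYND8 peaks, of 167 and 218 bp upstream and of 339 and 292 bp within the gene, and none of ZMYND8. These genes are near-identical copies, and 29.7% of the 50-base words in the 3 kb on each side of one start also occur around the other. Shared words made up 37.2% of the HSPA1B peak centred 194 bp downstream of the start and 23.0% of the one at 2112 bp, and none of the 2 upstream peaks. How the authors placed reads that match both copies is not given in the sources used here, so the values of HSPA1A and of the peaks inside HSPA1B are uncertain.

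Among the HSP70 genes, exact matches to the heat shock element occurred before HSPA6 and HSPA8. An ER stress element was found before HSPA5, which is the classical promoter of the unfolded protein response. The sequences are set side by side because the peaks lay differently over them. For HSPA6 the 250 bases before the start, chr1:161494080-161494329 on the plus strand, had 208 bases under the ZMYND8 peak and 130 under the FLAG-ZMYND8 peak. HSPA8 has 2 heat shock elements, which begin 230 and 55 bases before the canonical start. The farther one is shown within 30 bases at chr11:122933053-122933082 on the minus strand, which lay wholly under the ZMYND8 peak and not under a FLAG-ZMYND8 peak, and the nearer one lay under no peak of either list. For HSPA5 the 211 bases at chr9:128003662-128003872 on the minus strand lay under no peak of either list. Capitals mark the heat shock element (GAANNTTCNNGAA or its reverse complement) in the first 2 and the ER stress element in the third.
HSPA6: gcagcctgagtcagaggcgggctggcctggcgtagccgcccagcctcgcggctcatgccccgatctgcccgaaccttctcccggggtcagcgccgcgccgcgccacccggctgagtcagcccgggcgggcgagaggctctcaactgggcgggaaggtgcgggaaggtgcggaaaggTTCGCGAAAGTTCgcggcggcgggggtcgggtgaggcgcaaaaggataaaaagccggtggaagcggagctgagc
HSPA8: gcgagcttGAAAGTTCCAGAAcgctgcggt
HSPA5: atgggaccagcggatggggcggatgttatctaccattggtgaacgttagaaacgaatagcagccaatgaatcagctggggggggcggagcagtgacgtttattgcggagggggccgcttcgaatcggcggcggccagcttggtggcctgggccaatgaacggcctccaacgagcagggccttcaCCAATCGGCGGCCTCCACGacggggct

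All 3 HSP110 genes had FLAG-ZMYND8 peaks at the 5′ end (58.1% of all genes), and HSPA4 alone had one of ZMYND8 (34.1% of all genes). HSPA4 encodes APG-2, a nucleotide exchange factor of HSP70. Its ZMYND8 peak was 1065 bp wide (rank 721), centred 103 bp downstream of the start, and overlapped 2 FLAG-ZMYND8 peaks of 955 and 398 bp. HSPA4L, its close relative, had a FLAG-ZMYND8 peak of 1021 bp centred 499 bp downstream, with no ZMYND8 peak. HSPH1, the heat-inducible HSP110 gene, had FLAG-ZMYND8 peaks of 167 and 214 bp inside the gene and none of ZMYND8. So the class held both a doubly marked gene and a gene of similar FLAG-ZMYND8 width without ZMYND8. The heat shock element of HSPH1 lies outside these peaks and is shown in capitals in 54 bases at chr13:31736065-31736118 on the minus strand.
HSPH1: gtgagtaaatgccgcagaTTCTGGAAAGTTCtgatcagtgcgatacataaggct

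Class A J-domain proteins, the closest relatives of bacterial DnaJ, all had a FLAG-ZMYND8 peak at the 5′ end, and 3 of 4 also had a ZMYND8 peak that overlapped it (20.3% of all genes). DNAJA1, a partner of cytosolic HSC70, had a ZMYND8 peak of 1398 bp (rank 353) centred 390 bp upstream of its start. This midpoint lay 247 bp from the start of the neighbouring gene APTX, so the peak may be counted for either gene. Of the 3 FLAG-ZMYND8 peaks at DNAJA1, 2 of 253 and 236 bp lay under it. DNAJA2 had matched wide peaks, of 1263 bp for ZMYND8 (rank 453) and 1021 bp for FLAG-ZMYND8, centred 148 and 160 bp downstream of the start. DNAJA3, the mitochondrial member Tid1, had narrow overlapping peaks of 188 and 167 bp, and DNAJA4 a single FLAG-ZMYND8 peak of 219 bp.

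Of the 12 class B J-domain genes, the 5′ end had a peak of ZMYND8 in 4 (33.3%, against 34.1% of all genes, the background level) and of FLAG-ZMYND8 in 9 of 12 (against 58.1%). At the canonical start the counts were 3 (25.0% against 35.2%) and 8 (66.7% against 59.6%). DNAJB9, the endoplasmic reticulum protein ERdj4 that represses the stress sensor IRE1, carried the widest pair, a FLAG-ZMYND8 peak of 1307 bp (rank 485 of 63690) and a ZMYND8 peak of 856 bp, centred 23 and 67 bp upstream of the start. The start of THAP5 lies 50 bp from the midpoint of the ZMYND8 peak. DNAJB1, the HSP40 partner of HSP70, had a ZMYND8 peak of 406 bp at its canonical start, 177 bp downstream, which overlapped a FLAG-ZMYND8 peak of 215 bp. DNAJB2, a neuronal J protein with ubiquitin-interacting motifs, had 476 bp of ZMYND8 over 167 bp of FLAG-ZMYND8. At DNAJB11, the BiP partner ERdj3, an overlapping pair of 199 and 356 bp lay at the 5′ end, over 3 kb from the canonical start. DNAJB4 had an overlapping pair of 190 and 306 bp at its 5′ end, 179 bp from the start of FUBP1 for ZMYND8, and no peak at its canonical start 25764 bp away. DNAJB12, DNAJB14, DNAJB5 and DNAJB6 had FLAG-ZMYND8 peaks without ZMYND8 at the 5′ end, and DNAJB7, DNAJB8 and DNAJB13 had neither.

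DNAJB6, a suppressor of polyglutamine aggregation, also carries a heat shock element before its canonical start, and no peak covers it. The nearest FLAG-ZMYND8 peak, of 210 bp, was centred 607 bp downstream. The element is shown in capitals in 192 bases at chr7:157129468-157129659 on the plus strand.
DNAJB6: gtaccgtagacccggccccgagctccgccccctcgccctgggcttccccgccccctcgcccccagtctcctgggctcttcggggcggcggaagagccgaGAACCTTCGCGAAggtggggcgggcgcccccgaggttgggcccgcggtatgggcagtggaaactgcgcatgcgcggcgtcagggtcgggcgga

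Class C, the most diverse J-domain genes, gave 9 with a ZMYND8 and 22 with a FLAG-ZMYND8 peak among 29 at the 5′ end (31.0% and 75.9%, against 34.1% and 58.1% of all genes). At the canonical start there were 10 and 23 (34.5% and 79.3%, against 35.2% and 59.6%), so ZMYND8 was near the background at both. The gene with the widest FLAG-ZMYND8 peak of all chaperones was DNAJC22, a transmembrane J protein. That peak was 2780 bp wide, rank 25 of 63690, and was centred 804 bp upstream of the start, between peaks of 503 and 281 bp. The nearest ZMYND8 peak lay 7671 bp away, so at this locus the wide region was seen in the FLAG-ZMYND8 list alone. DNAJC3, the inhibitor p58IPK of the stress kinase PERK, showed a ZMYND8 peak of 325 bp inside a FLAG-ZMYND8 peak of 484 bp, centred 391 and 384 bp upstream. DNAJC14 had 823 bp of FLAG-ZMYND8 over a ZMYND8 peak of 151 bp, and DNAJC27, a RAB-like GTPase with a J domain, 2 FLAG-ZMYND8 peaks of 605 and 647 bp, each with a ZMYND8 peak of 151 bp. DNAJC10, the reductase ERdj5, had a ZMYND8 peak of 231 bp 70 bp downstream of its start, and its nearest FLAG-ZMYND8 peak was 150061 bp away. DNAJC6, the clathrin-uncoating protein auxilin, had no peak at its 5′ end, but a ZMYND8 peak of 285 bp overlapped one of FLAG-ZMYND8 of 211 bp at its canonical start.

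The CCT chaperonin folds actin and tubulin in stacked rings of related subunits. At the 5′ ends of its 10 genes, paralogs included, there was a peak of ZMYND8 in 3 and of FLAG-ZMYND8 in 7 (30.0% and 70.0%, against 34.1% and 58.1% of all genes), and at the canonical starts in 4 and 7 (40.0% and 70.0%, against 35.2% and 59.6%). TCP1, the alpha subunit, had ZMYND8 peaks of 286 and 188 bp on either side of its start and a FLAG-ZMYND8 peak of 681 bp farther upstream that overlapped neither, 965 bp from the start of MRPL18. CCT4 had a FLAG-ZMYND8 peak of 660 bp centred 137 bp downstream, and its only ZMYND8 peak, of 151 bp, was 2315 bp downstream over a second FLAG-ZMYND8 peak of 209 bp. CCT6A had overlapping peaks of 232 and 167 bp, 271 and 219 bp from the start of the divergent gene PSPH. At the canonical start of CCT3 peaks of 421 bp for ZMYND8 and 429 bp for FLAG-ZMYND8 coincided, 240 and 239 bp downstream. CCT5, CCT7 and CCT8 had FLAG-ZMYND8 peaks of 167 to 381 bp without ZMYND8. CCT2 had no peak at its start and 1 FLAG-ZMYND8 peak in its body, CCT6B a single one of 167 bp nearer to the start of LIG3, and CCT8L2 none.

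Of the 8 small heat shock protein genes, 1 had a ZMYND8 peak at the 5′ end (12.5% against 34.1% of all genes). A FLAG-ZMYND8 peak lay there in 4 of 8 (against 58.1%). No pair overlapped at the 5′ end, where 20.3% of all genes had one. Counts at the canonical start were 2 for ZMYND8 (25.0% against 35.2%) and 5 for FLAG-ZMYND8 (62.5% against 59.6%). FLAG-ZMYND8 was thus near the background at that start. HSPB1, the inducible HSP27 gene, had FLAG-ZMYND8 peaks of 226 and 355 bp centred 1482 and 2589 bp downstream of its start, the second beyond the end of the gene. HSPB9, a testis gene, had the ZMYND8 peak, which is of the minimum width and lies 235 bp from the start of KAT2A. HSPB8 had peaks of 151 bp for ZMYND8 and 167 bp for FLAG-ZMYND8 at its canonical start, 7376 bp from its 5′ end. HSPB2 and HSPB2-C11orf52 shared 1 FLAG-ZMYND8 peak of 167 bp, and HSPB3, HSPB6 and HSPB7 had none at the start. No peak at the start of a small heat shock protein gene was thus wider than 355 bp. Among the heat shock factors, HSF1, the master regulator of the heat shock response, had a ZMYND8 peak of 151 bp 493 bp downstream of its start and no FLAG-ZMYND8 peak there, and HSF2 had a FLAG-ZMYND8 peak of 167 bp and none of ZMYND8.

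**Figure D3:**
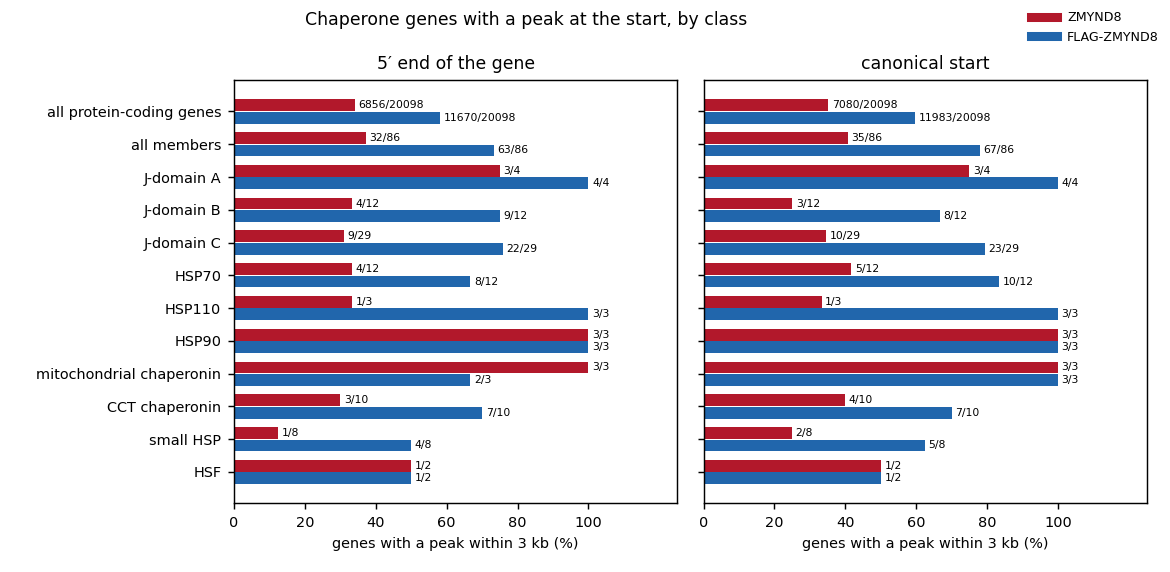
Share of genes (x axis, %) with a ZMYND8 (red) or FLAG-ZMYND8 (blue) peak within 3 kb of the 5′ end (left) or the canonical start (right), for all protein-coding genes, all chaperone genes and each class on the y axis, with the counts printed beside the bars. The HSP90 bars reach 3 of 3 genes in both lists, and FLAG-ZMYND8 bars exceed ZMYND8 bars in most classes, with equal bars for HSP90 and HSF and the reverse for the mitochondrial chaperonin at the 5′ end, where its canonical-start bars are equal.

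In the gene bodies, beyond 3 kb from the 5′ end, chaperone genes carried FLAG-ZMYND8 peaks somewhat more often than other genes. Of the 76 members with such a body, 44 had at least 1 FLAG-ZMYND8 peak in it (57.9% against 48.8% of 18373 genes) and 19 a ZMYND8 peak (25.0% against 20.7%). There were 108 FLAG-ZMYND8 and 25 ZMYND8 peaks in all, or 0.397 and 0.0918 per 10 kb, against 0.249 and 0.0443 over all genes. Short genes have higher densities, and the median length was 21300 bp for members and 27300 bp for all genes, so the genes were also split by body length. Under 10 kb, 7 of 21 members had a FLAG-ZMYND8 body peak (33.3% against 24.2%), from 10 to 50 kb 24 of 36 (66.7% against 47.5%), and from 50 kb on 13 of 19 (68.4% against 68.1%). The share was thus above that of all genes in the first 2 bins and close to it in the longest genes. The density was higher in the members in every bin, with 1.37, 0.516 and 0.281 FLAG-ZMYND8 peaks per 10 kb against 0.83, 0.461 and 0.202. Single genes weighed heavily on the first 2 bins. HSPA2, in the first, held 6 peaks or 8.26 per 10 kb, and DNAJB12, in the second, 9 peaks or 4.66 per 10 kb. The densities were not recomputed without these genes, so they do not describe the typical member. These body counts include peaks at a canonical start inside a gene, for members and for all genes. Outside the windows around both starts, 83 distinct FLAG-ZMYND8 peaks remained, with midpoints of 66 in introns, 13 in noncoding exon sequence and 4 in coding sequence. For ZMYND8, 15 distinct peaks remained. A protein-coding start lay within 3 kb of 9 of the 83 and of 4 of the 15.

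The members with the most FLAG-ZMYND8 body peaks were DNAJB12 and HSP90AA1 with 9 each, DNAJB6 with 8, DNAJC6 with 7, and HSPA2 and HSPA12A with 6 each. For HSP90AA1 and HSPA2 these include peaks around a canonical start inside the gene, 6 and 5 of them. The same held for 3 peaks of HSPA12A, 2 of DNAJC6 and 1 of DNAJB6. In DNAJB6, 6 of the 8 peaks were at the minimum width and spread over a long body, and a ZMYND8 peak of 204 bp overlapped 1 of them 20797 bp from the 5′ end. In DNAJC6, an intronic FLAG-ZMYND8 peak of 443 bp overlapped a ZMYND8 peak of 564 bp 17726 bp from the 5′ end. DNAJC17, a J protein linked to splicing, held 5 body peaks, and 3 of them, of 1114, 978 and 655 bp, stood together near its 3′ end, around the start of C15orf62. The most ZMYND8 body peaks were 3 in HSPA2, followed by 2 each in CCT3, DNAJC6, HSP90AA1 and DNAJB6.

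**Figure D4:**
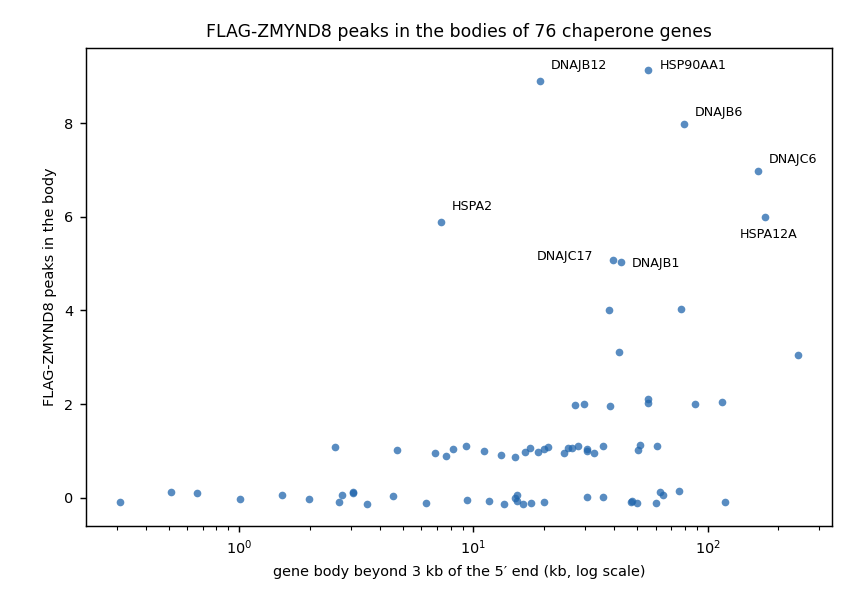
Number of FLAG-ZMYND8 peaks in the gene body (y axis, with a small random vertical shift so that points do not hide each other) against the length of the body beyond 3 kb from the 5′ end (x axis, kb, log scale), 1 point for each of 76 chaperone genes. DNAJB12 and HSP90AA1 lie highest with 9 peaks each, and HSPA2 has 6 peaks in a body of 7268 bp.

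DNAJB12 encodes a J protein of the endoplasmic reticulum membrane that works with cytosolic HSC70 in quality control. Its own start had FLAG-ZMYND8 peaks of 470, 257 and 167 bp and no ZMYND8 peak. At least 3 FLAG-ZMYND8 peaks stood at the 5′ end of 14.5% of all genes. Wider peaks lay at the 3′ end of DNAJB12 and beyond. The second widest of all 63690 FLAG-ZMYND8 peaks, 5312 bp on chromosome 10 from 74079039 to 74084350, was centred 10894 bp beyond the end of the gene, 33213 bp from its 5′ end. The widest of all, 5751 bp from 74032021 to 74037771, lay 80011 bp from the 5′ end of DNAJB12 and covered the start of DDIT4, a stress-induced inhibitor of mTORC1 signalling, so its nearest protein-coding start was not that of the chaperone gene. A peak of 2056 bp (rank 93) sat across the 3′ end of DNAJB12 itself, and others of 1753 bp (rank 188) and 2018 bp (rank 101) lay farther on. Within 100 kb downstream of the DNAJB12 start there were 44 FLAG-ZMYND8 peaks that covered 32270 bp, and 9 of them were over 1000 bp wide.

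The ZMYND8 list held few peaks in this region. In the same 100 kb downstream lay 4 ZMYND8 peaks that covered 885 bp, the widest of 283 bp. None of the 4 overlapped a FLAG-ZMYND8 peak. A single FLAG-ZMYND8 peak of the region, 1032 bp wide at its far end, overlapped a peak of the ZMYND8 list, whose midpoint lay farther than 100 kb. The FLAG-ZMYND8 cells overexpressed the tagged protein after doxycycline and were precipitated with another antibody, and the part of these differences in the values was not tested.

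**Figure D5:**
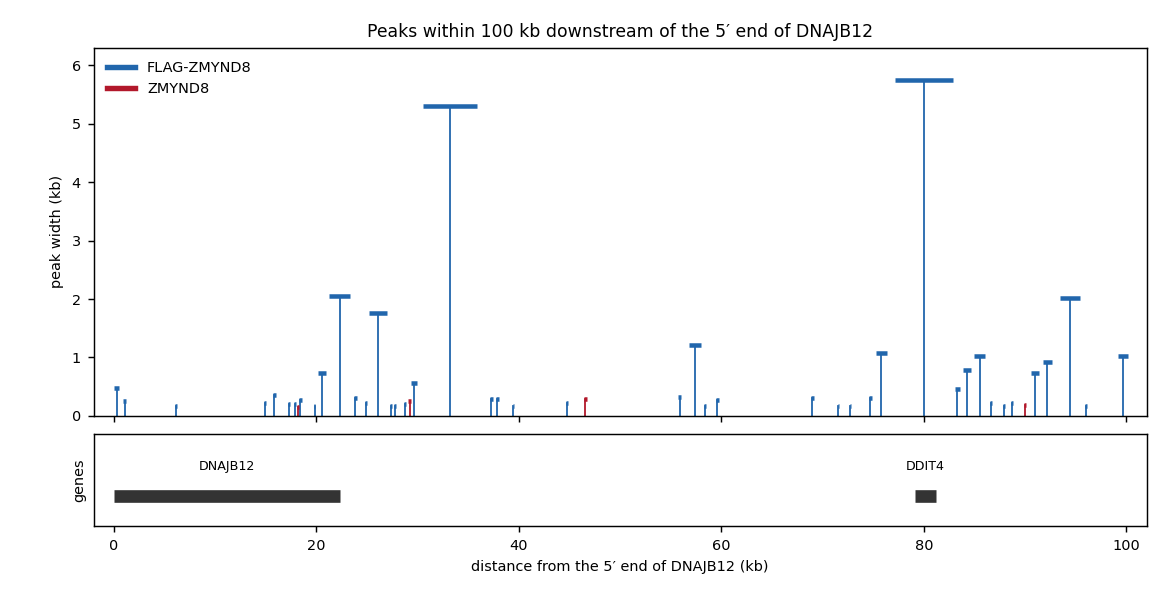
Peaks within 100 kb downstream of the 5′ end of DNAJB12, with distance in kb on the x axis and peak width in kb on the y axis, FLAG-ZMYND8 in blue and ZMYND8 in red, each bar as wide as its peak, and the genes DNAJB12 and DDIT4 drawn to scale below. The highest 2 bars, 5312 and 5751 bp wide, stand beyond the 3′ end of DNAJB12 and over DDIT4, and no ZMYND8 bar is higher than 283 bp.

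Chaperones of one compartment or one mode of regulation were also counted as lists. Of 17 heat-inducible genes, 12 of them members, 10 had a ZMYND8 and 15 a FLAG-ZMYND8 peak at the 5′ end (58.8% and 88.2%), and 11 and 16 at the canonical start (64.7% and 94.1%, against 35.2% and 59.6% of all genes). Of 22 chaperones and folding enzymes of the endoplasmic reticulum, the counts at the 5′ end were 12 and 19 (54.5% and 86.4%), and of 17 mitochondrial ones 9 and 14 (52.9% and 82.4%). Among all genes 34.1% had a ZMYND8 and 58.1% a FLAG-ZMYND8 peak there. HSPD1 and HSPE1 are on both the heat-inducible and the mitochondrial list. At the canonical start they count the same peaks, and at the 5′ end HSPD1 counts the ZMYND8 peak near MOB4. Of the 13 members on a list of genes restricted to testis, muscle or heart, 2 had a ZMYND8 and 4 a FLAG-ZMYND8 peak (15.4% and 30.8%), and 9 had neither (69.2% against 37.2% of all genes). The 73 members outside that list had ZMYND8 peaks in 30 cases (41.1%) and FLAG-ZMYND8 peaks in 59 (80.8%). Those 9 were among the 20 members with neither peak at the 5′ end. No peak of either list lay at either start or in the body of 11 members (12.8% against 25.6% of all genes), namely CCT8L2, DNAJB13, DNAJB7, DNAJB8, DNAJC24, DNAJC28, DNAJC5G, HSPA1A, HSPA1L, HSPB3 and HSPB6.

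Partners and relatives of the chaperones that are not members themselves were counted in the same way. A list of 26 co-chaperones of HSP70 and HSP90 also held relatives of the chaperones such as TRAP1. Of these 26, 19 had a ZMYND8 and 24 a FLAG-ZMYND8 peak at the 5′ end and 1 had neither (73.1%, 92.3% and 3.85%, against 34.1%, 58.1% and 37.2% of all genes). The widest peaks at the canonical start of STUB1, the ubiquitin ligase CHIP that binds both chaperones, measured 3416 bp for ZMYND8 and 1584 bp for FLAG-ZMYND8. At STIP1, the adaptor HOP between HSP70 and HSP90, they measured 1424 and 434 bp. Prefoldin hands actin and tubulin to CCT. Of the 7 genes on a prefoldin list, ZMYND8 peaks were found at 1 (14.3%) and FLAG-ZMYND8 peaks at 4 (57.1%, near the 58.1% of all genes). The list also held PDCL3, which is not a prefoldin subunit and was 1 of the 4 with a FLAG-ZMYND8 peak. These lists overlap with the heat-inducible and compartment lists, and a gene may count more than once.

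Chaperone promoters were slightly richer in CpG than other promoters, had another protein-coding start nearby more often, and those without a peak had less CpG. In the 300 bases from 250 before to 50 after the canonical start, members had a median GC content of 64.8% against 63.7% over all genes, and a median ratio of observed to expected CpG of 0.877 against 0.773. Members with neither peak had a median ratio of 0.543 and those with a FLAG-ZMYND8 peak 0.89. Among the 70 members with a ratio of at least 0.6, 62 had a FLAG-ZMYND8 peak (88.6% against 76.8% of all genes with such a ratio), and among the 16 below it 5 had one (31.2% against 24.6%). At the 5′ end, the 13 members on the list restricted to testis, muscle or heart had a median ratio of 0.449, against 0.834 for the other 73. ZMYND8 and FLAG-ZMYND8 peaks lay there in 15.4% and 30.8% of the 13, against 16.3% and 33.2% of all genes with a ratio under 0.6. At the canonical start it was 23.1% and 30.8%, against 10.3% and 24.6%. CpG content thus differed between members with and without peaks, as it did over all genes, and its part in the counts was not tested. Another protein-coding start lay within 3 kb of 33 members (38.4% against 21.9%). Among these, 23 had a FLAG-ZMYND8 peak (69.7% against 75.8% of all genes with such a neighbour), and among the 53 without, 40 had one (75.5% against 53.1%). For ZMYND8 the shares were 45.5% against 47.5% and 32.1% against 30.4%. For HSPE1, DNAJC25, HSPB2 and the readthrough gene of each, the only neighbouring start was that of the other gene of the pair.

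The heat shock element with 3 units, GAANNTTCNNGAA on either strand, was found in the canonical promoter window of 7 members (8.14%) and of 0.358% of all protein-coding genes. The 7 were DNAJA1, DNAJB6, HSP90AA1, HSPA6, HSPA8, HSPD1 and HSPH1. Each of them had a FLAG-ZMYND8 peak at the canonical start and 5 had one of ZMYND8 (71.4%). Of the 72 genes with the element over the genome, these 7 included, 56.9% had a FLAG-ZMYND8 and 38.9% a ZMYND8 peak there. The ER stress element, which contains a CCAAT box, occurred in HSPA5 and HSP90B1 (2.33% against 0.104%). The CCAAT box itself occurred in 36 members (41.9% against 35.9%). Of the 44 distinct ZMYND8 peaks at either start of a member, 6 held a heat shock element (13.6% against 0.491% over the whole list), and 6 of the 145 for FLAG-ZMYND8 did (4.14% against 0.295%). These shares were not matched for peak width, distance from a start or how often the promoters hold the element. The 6 ZMYND8 peaks were 221 to 1764 bp wide and the 6 FLAG-ZMYND8 peaks 211 to 796 bp. The medians of the lists are 151 and 167 bp. Of the members on the heat-inducible list, HSPA1A, HSPA1B, HSPA4L, HSP90AB1, HSPE1, DNAJB1 and HSPB1 had no match in this window. HSPE1 had 2 in the window at its 5′ end. Only the exact form was searched, so a missing match does not show that a promoter lacks a heat shock element. A match is a stretch of letters and not evidence of binding by a factor.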

How the data were processed

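ChIP-seq with antibodies to ZMYND8 and to FLAG was carried out in HEK293 cells, and 1 peak list per target was used. Per the study's methods and the labels, the authors used BWA-MEM (BWA 0.7) for mapping to hg19 and HOMER for profiles. The peak-calling settings and the way replicates were combined are not given in the sources used here. The lists that the authors deposited hold positions and a score that is 1 in all rows, and they have no header.

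Chaperone genes were found by symbol in GENCODE release 44 on GRCh37, and no peak reached beyond a chromosome's end. The members, classes and gene lists were chosen with earlier results of these data known. Genes were named by width and number of peaks, by class and by absence of peaks. HSPA6, HSPA13, HSPA14, DNAJA3, DNAJA4, DNAJB2, DNAJB4, DNAJB11, DNAJC14, DNAJC27, HSPB8, HSPB9, STUB1 and STIP1 were named after their values were seen. A peak was at a start when its midpoint lay within 3 kb, in a body when it lay inside the gene beyond 3 kb, and shared when it overlapped by 1 bp. Motifs were searched on both strands of the GRCh37 sequence. With 1 list per target and no counts, no p-value was computed. Python 3.11.15, numpy 2.4.6, pandas 2.3.3 and matplotlib 3.10.9 were used.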

Additional observations from a re-analysis of the deposited data

How the results depend on the processing

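Of 40 alternative counts of members with a peak, 29 stayed within 1.5 times the reported count. This limit concerns the count of members and is too wide to judge the difference from all genes. With a window of 500 bp, 20 members had a ZMYND8 peak, 41 a FLAG-ZMYND8 peak and 14 both. With peaks wider than the minimum width alone (7091 and 28873 peaks), 20 had a ZMYND8 peak at the 5′ end, 15 both and 13 an overlapping pair, and 11 had a ZMYND8 and 27 a FLAG-ZMYND8 peak in the body. When the FLAG-ZMYND8 list was cut by width to the number of ZMYND8 peaks, 32 members had a FLAG-ZMYND8 peak and 19 both. When the overlap had to reach 50% of each peak, 12 members had an overlapping pair. These settings keep fewer peaks or a smaller window by construction. Apart from the cut to the widest FLAG-ZMYND8 peaks and the canonical start, the alternatives were counted for the members alone. Those counts therefore do not show whether a difference from all genes remains. The canonical start and the omission of readthrough members were added after the data were seen, and both stayed within 1.5 times.

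No paired analysis was possible because each target has 1 peak list that names no replicates and no test was made. Replicates were not left out either. The depth is unknown, and the larger number of FLAG-ZMYND8 peaks cannot be told apart from the tag, the overexpression, the antibody or the depth.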
